A study of Mus musculus with 24 samples.

Results

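The enzymes that remove superoxide and peroxides form a set of 9 genes, taken by name: the superoxide dismutases Sod1 and Sod2, the catalase gene Cat, the glutathione peroxidases Gpx1 and Gpx4, and the peroxiredoxins Prdx2, Prdx3, Prdx5 and Prdx6. They are 9 of the 15878 genes with values. RNA was measured by Smart-seq2 in microglia sorted from brain, in 4 groups of 6 libraries. WD-Exos and ND-Exos mice had the BCAS operation and received exosomes of the kind so named by tail vein, 100 µg every 3 days over 28 days. BCAS mice had the operation with PBS, and Sham mice had PBS without it. BCAS stands for bilateral carotid artery stenosis, a narrowing of both carotid arteries that lowers blood flow to the forebrain. All mice were WT, and all libraries are labelled day 28. The series title names foam cells, lipid-laden macrophages, as the exosome source. The labels give no age, do not spell out ND or WD, and do not state whether each sample is its own mouse, so every p-value here reflects spread between samples that may be technical.

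Superoxide is made by the respiratory chain and, in phagocytes such as microglia, by the NADPH oxidase. Superoxide dismutases turn it into hydrogen peroxide, in the cytosol by Sod1 and in the mitochondrial matrix by Sod2. Catalase breaks peroxide down in peroxisomes. Gpx1 and Gpx4 are selenoenzymes that reduce peroxides with glutathione, and Gpx4 acts on lipid peroxides within membranes, which protects against ferroptosis. Most peroxiredoxins draw electrons from thioredoxin: Prdx2 in the cytosol, Prdx3 in mitochondria and Prdx5 in several compartments. Prdx6 uses glutathione and also has phospholipase activity.

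No member passed the threshold of an adjusted p under 0.05 in any comparison by the quasi-likelihood test of edgeR. The smallest unadjusted p-values of members in that test belonged to WD-Exos microglia, whose mean Gpx1 and Prdx2 levels were below those of the other groups. Prdx2 averaged 109 ± 16.2 CPM (SD, n = 6) in WD-Exos, 175 ± 37.9 in ND-Exos, 177 ± 35.3 in BCAS and 169 ± 52.5 in Sham. Gpx1 averaged 696 ± 93.7, 954 ± 143, 862 ± 93.3 and 989 ± 74.8 CPM in the same order of groups. CPM expresses a gene's count relative to its library's total, with TMM scaling between libraries. In sorted bulk samples, fewer cells with a transcript and less transcript per cell cannot be told apart.

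Libraries held 24277722 to 28892423 counts in total and detected 8515 to 10794 genes. All 10 microglia markers had values in every group, with summed levels that averaged 54328 CPM in WD-Exos, 48898 in ND-Exos, 53478 in BCAS and 46536 in Sham. Every member had a count in all 24 libraries, and all 9 were among the 10219 genes tested. The lowest count of any member was 447, for Sod2. The values of Prdx5 were not whole in 24 libraries and those of Sod2 in 10, a form that estimated counts take when reads are divided between features.

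Compared per kilobase of the longest principal transcript, Gpx1 was the most abundant member, at 817 ± 141 CPM per kilobase over the 24 libraries (SD). Sod1 followed at 539 ± 115, Gpx4 at 296 ± 51.8 and Prdx5 at 219 ± 37.5 CPM per kilobase. These 4 genes held the same order by mean in all 4 groups. Prdx2 (97.7 ± 28.3), Cat (78.1 ± 27.7) and Prdx3 (77.8 ± 19.4) lay closer together than their spread. With its shortest principal transcript Prdx2 stood at 134 CPM per kilobase, so its place rests on the transcript used. Prdx6 stood at 33.6 ± 13.5 and Sod2 lowest at 11.1 ± 4.4 CPM per kilobase, the last over a transcript of 5861 bases. The 2 least abundant members also varied most: the highest library exceeded the lowest by 7.19 times for Sod2 and 7.15 times for Prdx6, against 1.88 times for Gpx1 and 1.85 times for Prdx5.

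**Figure D1:**
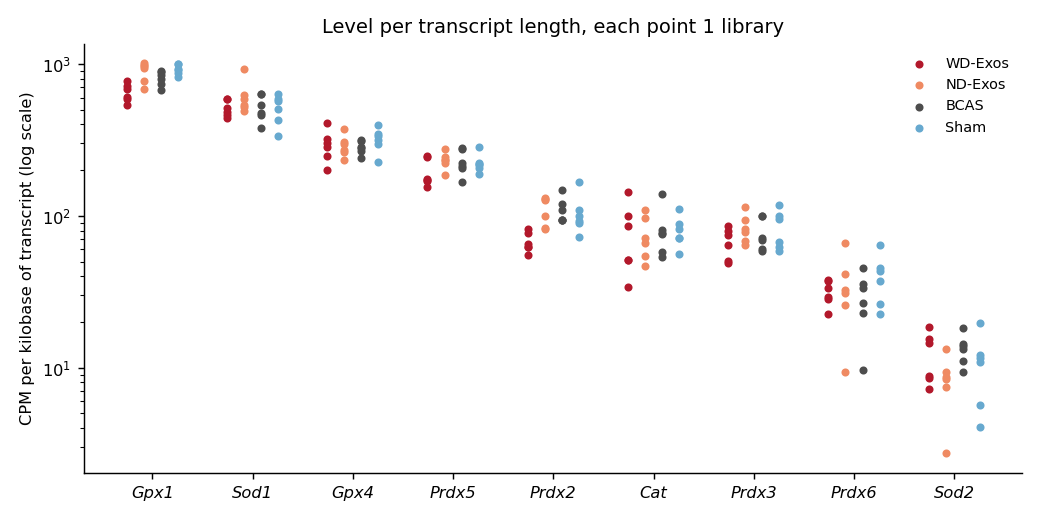
CPM per kilobase of transcript (log axis) of each enzyme gene, ordered by mean; each point is 1 library, coloured by group. Gpx1 averaged 817 and Sod2 11.1 CPM per kilobase, and Prdx2, Cat and Prdx3 overlap.

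Gpx1, the abundant cytosolic and mitochondrial glutathione peroxidase, and Prdx2 are shown here with Sod1, a member whose level was close in WD-Exos, BCAS and Sham, as the 250 bases before their transcript starts. The sequences and coordinates are from RefSeq, build GRCm38.p6, in which 8 of the 9 members matched (Prdx6 did not). Capitals mark matches on either strand to the GC box GGGCGG, bound by Sp-family factors, and to TGACNNNGC, the core of the antioxidant response element bound by Nrf2.

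Gpx1 promoter, chr9:108338830-108339079, + strand: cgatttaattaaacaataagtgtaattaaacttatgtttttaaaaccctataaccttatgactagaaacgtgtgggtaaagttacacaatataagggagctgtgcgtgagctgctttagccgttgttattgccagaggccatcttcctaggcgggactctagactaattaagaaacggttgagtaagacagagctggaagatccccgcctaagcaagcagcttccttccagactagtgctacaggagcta

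Prdx2 promoter, chr8:84969372-84969621, + strand: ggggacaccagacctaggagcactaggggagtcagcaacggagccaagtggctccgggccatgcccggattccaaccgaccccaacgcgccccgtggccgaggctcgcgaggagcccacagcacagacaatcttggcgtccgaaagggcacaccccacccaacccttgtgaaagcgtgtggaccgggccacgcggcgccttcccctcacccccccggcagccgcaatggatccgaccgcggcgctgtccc

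Sod1 promoter, chr16:90220512-90220761, + strand: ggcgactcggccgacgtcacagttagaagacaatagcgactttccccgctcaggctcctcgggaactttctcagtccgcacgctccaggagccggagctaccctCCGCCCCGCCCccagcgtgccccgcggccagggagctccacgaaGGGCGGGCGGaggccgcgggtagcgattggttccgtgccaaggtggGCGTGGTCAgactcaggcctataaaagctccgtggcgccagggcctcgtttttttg

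In windows of 300 bases (these 250 and the first 50 after the start), the antioxidant response element core was present for 1 of the 8 members, Sod1. It was present in 12.4% of all 32851 promoters and, counted as for the members in any window of a gene, for 14% of 27025 genes. The GC box was present for 8 of the 8, in at least one of their windows, against 38.2% of all genes counted the same way and 35.7% of all promoters. The members lay at percentiles 79.3 to 98.7 of mean CPM among tested genes, and no share was taken for genes of such levels. The single GC box matches of Gpx1 and Prdx2 lie past or across the start and so carry no capitals above. Matching and overlapping letters were counted on both strands, and a match is a description of the letters only.

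Prdx2 ranged over 88.6, 103 and 132 CPM (lowest, median and highest library) in WD-Exos and 131, 183 and 212 in ND-Exos. It ranged over 150, 164 and 240 CPM in BCAS and 117, 155 and 269 in Sham. Every WD-Exos library thus lay below every BCAS library, a separation downwards that 0.0685% of the tested genes had, and 5 of the 6 lay below every ND-Exos library. Against Sham, 4 of the 6 lay below every library. The ratio of WD-Exos to BCAS was 0.615 (95% interval 0.462 to 0.818, log2 fold change -0.70, SE 0.20, adjusted p = 0.816), 17th by p of all genes tested. Against ND-Exos the ratio was 0.620 (0.466 to 0.825, log2 fold change -0.69, SE 0.20, adjusted p = 0.390). The means of ND-Exos, BCAS and Sham differed by less than their spread. By DESeq2 both differences passed, with adjusted p = 0.0414 against BCAS and adjusted p = 0.0480 against ND-Exos.

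Gpx1 ranged over 575, 690 and 824 CPM in WD-Exos and 732, 1020 and 1079 in ND-Exos. In BCAS it ranged over 718, 878 and 958 CPM and in Sham over 881, 986 and 1072. The 6 WD-Exos libraries all lay below the 6 Sham libraries, which 0.744% of the tested genes did, and 4 of them lay below every ND-Exos library; WD-Exos and Sham were not tested against each other. The ratio of WD-Exos to ND-Exos was 0.729 (95% interval 0.615 to 0.863, log2 fold change -0.46, SE 0.12, adjusted p = 0.299). Against BCAS it was 0.807 (0.681 to 0.955, log2 fold change -0.31, SE 0.12, adjusted p = 0.864), and the groups overlapped. By DESeq2 the difference from ND-Exos passed (adjusted p = 0.00386), and that from BCAS did not (adjusted p = 0.249). The levels in order were Sham, ND-Exos, BCAS and WD-Exos, and of the gaps between neighbours only that between BCAS and WD-Exos was wider than the larger SD of the pair.

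**Figure D2:**
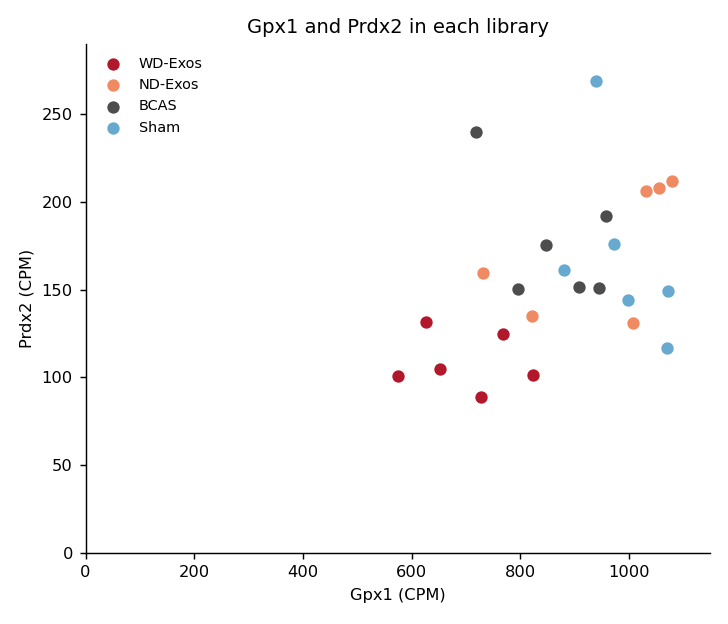
Prdx2 against Gpx1, both in CPM on linear axes from 0, each point 1 library coloured by group. The WD-Exos libraries lie at 575 to 824 CPM of Gpx1 and 88.6 to 132 CPM of Prdx2, and the Sham libraries lie at 881 CPM of Gpx1 and above.

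Other features of these libraries are set beside the lower Prdx2 and Gpx1 levels, and their part in the result was not tested. Summed border macrophage markers (7 of 7 with values, none at 0 throughout) were 17.3 to 137 CPM in WD-Exos, 51.2 to 586 in ND-Exos, 0.22 to 424 in BCAS and 51.8 to 1289 in Sham. The WD-Exos mean of 73.9 CPM and the ND-Exos mean of 272 CPM had an exact two-sided permutation p = 0.0152 and an adjusted p of 0.283 over 56 tests. Ribosomal protein transcripts took 3.19 to 5.02% of CPM in WD-Exos and 3.60 to 5% in ND-Exos. The share was 3.70 to 5.88% in BCAS and 5.48 to 6.80% in Sham. Neither WD-Exos nor ND-Exos overlapped Sham in this share. WD-Exos and ND-Exos overlapped each other, at means of 4.1 and 4.42% (exact two-sided permutation p = 0.346, adjusted p = 0.646). Summed mural cell markers (6 of 6 with values) reached at most 19.9 CPM in WD-Exos, 16.4 in ND-Exos, 0.0433 in BCAS and 981 in Sham. Endothelial markers (6 of 6) reached at most 63.7, 44.5, 45 and 616 CPM in that order, and for both lists the lowest Sham libraries lay within the WD-Exos range. Oligodendrocyte markers (8 of 8) reached at most 5302 CPM in WD-Exos, 4160 in ND-Exos, 1239 in BCAS and 7541 in Sham. Their medians were 329, 227, 278 and 316 CPM in that order. Astrocyte markers (8 of 8) averaged 193, 248, 169 and 138 CPM in that order. Erythroid markers, of interest because red cell precursors make much Prdx2 and Cat, summed to at most 12.1 CPM in WD-Exos, 0 in ND-Exos, 4.38 in BCAS and 2.05 in Sham, with 5 of 9 having values. In the GENCODE vM21 annotation the exons of Prdx2 overlap those of Junb and Rnaseh2a on the opposite strand, by at most 177 bases, and the labels do not say whether counting used strand. Junb, a transcription factor of the AP-1 family, averaged 744 ± 655 CPM in WD-Exos, 270 ± 106 in ND-Exos, 414 ± 422 in BCAS and 227 ± 112 in Sham. Rnaseh2a, a ribonuclease subunit, averaged 17.8 ± 14.7, 27.7 ± 12.7, 21.7 ± 8.97 and 25.1 ± 17.5 CPM in that order. Prdx2 also has a near copy, Tdpx-ps1, 96.3% alike over 597 bases, so its counts are uncertain where reads could go to either.

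The superoxide dismutases gave no member past the threshold, and their group means ran in different orders. Sod1 averaged 328 ± 40.5 CPM in WD-Exos, 393 ± 101 in ND-Exos, 334 ± 65.7 in BCAS and 326 ± 70.5 in Sham. Its highest library, at 590 CPM, was 1 of the ND-Exos libraries, and the groups overlapped throughout. Of the 4 fitted comparisons the widest was WD-Exos against ND-Exos, with a ratio of 0.834 (95% interval 0.65 to 1.07). A near copy, Gm8566, is 97.8% alike to Sod1 over 465 bases. Sod2 averaged 71.4 ± 26.9 CPM in WD-Exos, 48.7 ± 19.9 in ND-Exos, 78.3 ± 17.8 in BCAS and 62.4 ± 32.2 in Sham. The ND-Exos libraries ranged from 16.0 to 77.7 CPM and the BCAS libraries from 54.8 to 107, and 4 of the 6 ND-Exos libraries lay below every BCAS library. That difference had a log2 fold change of -0.68 (SE 0.37, interval -1.44 to 0.07, adjusted p = 1). WD-Exos stood higher than ND-Exos in Sod2, with a ratio of 1.46 (interval 0.871 to 2.46, adjusted p = 0.9999), the opposite direction to Gpx1 and Prdx2 in the same comparison.

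Catalase was level across the groups and uneven within them. Cat averaged 203 ± 106 CPM in WD-Exos, 193 ± 63.2 in ND-Exos, 210 ± 79.6 in BCAS and 209 ± 48.8 in Sham. The WD-Exos libraries spread from 89.4 to 376 CPM. Its 4 fitted ratios lay between 0.919 (ND-Exos over BCAS, interval 0.607 to 1.39) and 1.05 (WD-Exos over ND-Exos, 0.694 to 1.59), so differences of up to about these bounds were not resolved at this spread.

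Gpx4 stood near one level in all groups, while Gpx1, the other glutathione peroxidase of the set, had its lowest mean in WD-Exos. Gpx4 averaged 281 ± 68.1 CPM in WD-Exos, 278 ± 46.8 in ND-Exos, 271 ± 27.8 in BCAS and 306 ± 54.6 in Sham. Its ratio of WD-Exos over ND-Exos was 1.01 (95% interval 0.8 to 1.28) and of BCAS over Sham 0.888 (0.703 to 1.12). For BCAS over Sham the ratio of Gpx1 was close to that, at 0.872 (0.737 to 1.03). Whether the 2 genes differed in response was not tested. Gpx4 has 2 near copies in the annotation, Gpx4-ps2 (99.7% alike over 762 bases) and AC122253.3 (95.1% over 535), and reads shared with them could be counted either way.

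The remaining peroxiredoxins overlapped in every comparison. Mitochondrial Prdx3 averaged 99.2 ± 22.4 CPM in WD-Exos, 124 ± 27.3 in ND-Exos, 113 ± 27.6 in BCAS and 124 ± 36.0 in Sham. Prdx5 averaged 245 ± 51.7, 293 ± 36.1, 287 ± 54.1 and 282 ± 41.3 CPM in the same order. For both, WD-Exos was the lowest group by less than 1 SD. The WD-Exos to ND-Exos ratio was 0.803 (interval 0.582 to 1.11) for Prdx3 and 0.835 (0.666 to 1.05) for Prdx5. Prdx5 shares 409 exon bases with Trmt112, a methyltransferase cofactor on the opposite strand, which averaged 117 ± 52.3 CPM in WD-Exos, 152 ± 31.1 in ND-Exos, 124 ± 19.9 in BCAS and 146 ± 38.2 in Sham. Prdx6 averaged 74.8 ± 13.9 CPM in WD-Exos, 82.0 ± 45.3 in ND-Exos, 68.9 ± 29 in BCAS and 94.8 ± 35.6 in Sham. Its ND-Exos libraries ran from 22.2 to 159 CPM and covered all the WD-Exos libraries.

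**Figure D3:**
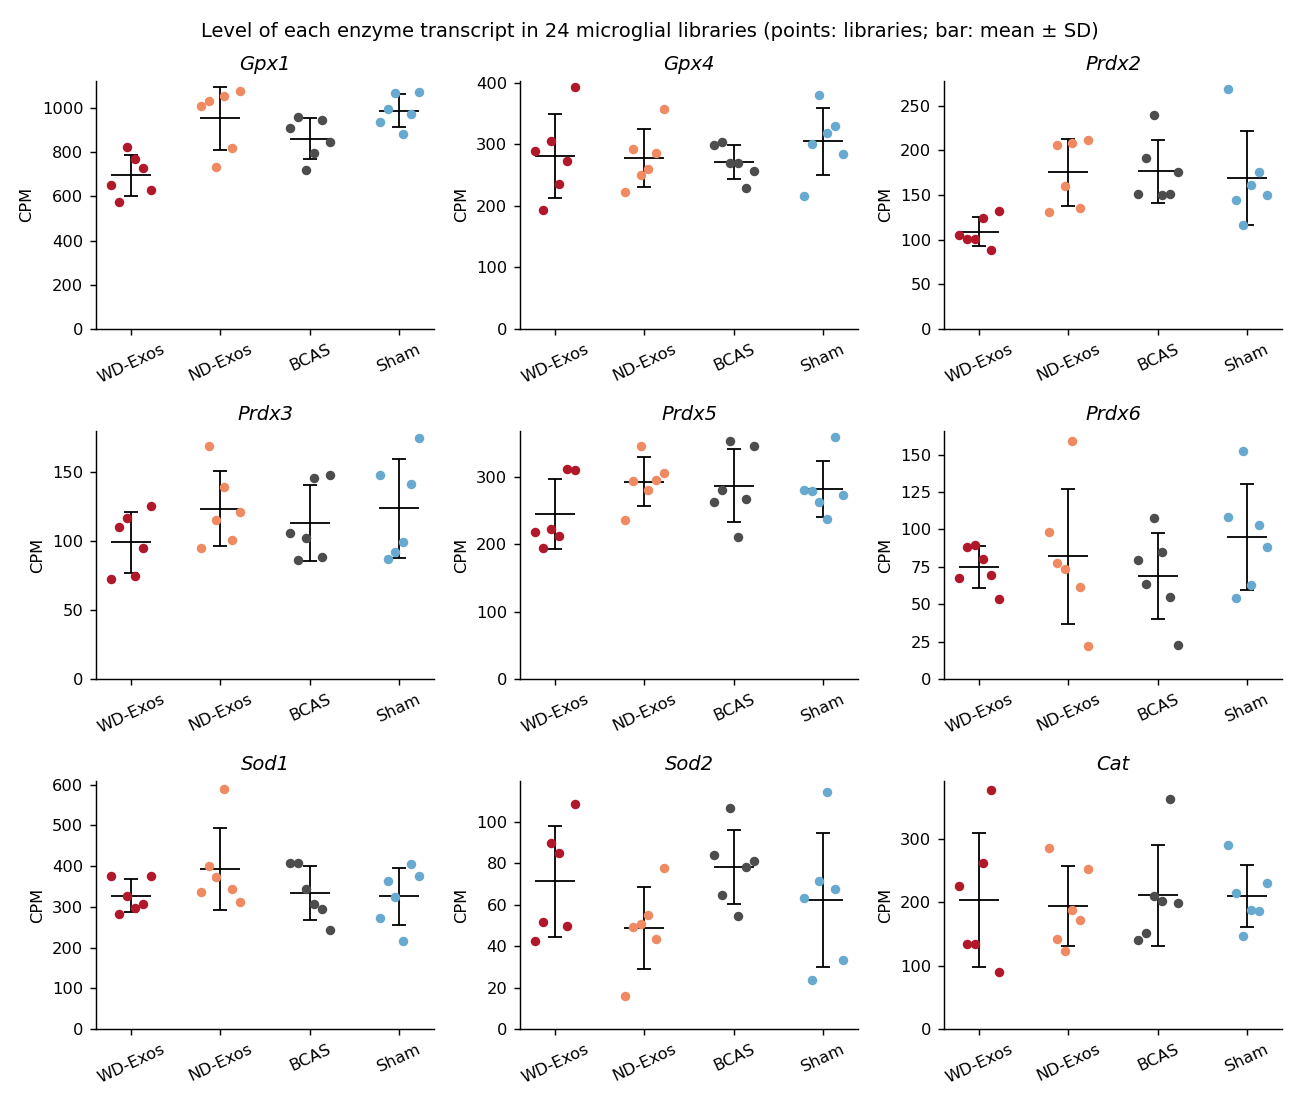
CPM of each enzyme gene by group; points are libraries and bars are the mean ± SD of 6. The WD-Exos points of Prdx2 (88.6 to 132 CPM) lie below all BCAS points, and for Gpx1 below all Sham points; the other 7 genes overlap in every pair of groups.

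WD-Exos against ND-Exos asks whether the exosome kind matters in the operated brain. Of the 9 members 6 were lower and 3 higher in WD-Exos, with a median log2 fold change of -0.26, beside 50.8% lower and a median of -0.014 over all genes tested. By edgeR 0 passed (0.0196% of all genes did), 2 had an unadjusted p under 0.05 (5.33% of all genes), and DESeq2 called 2, Gpx1 and Prdx2, beside 1.24% of the 10174 genes to which it gave an adjusted p. The summed level of the 9 was 2107 ± 202 CPM in WD-Exos and 2542 ± 283 in ND-Exos, and Gpx1 had the largest single difference in CPM between these means.

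WD-Exos against BCAS, which asks what the exosomes added to the operation, had 7 members lower and 2 higher (median -0.13), beside 51.1% lower and a median of -0.016 over all genes. No member passed by edgeR (0% of all genes), 2 had an unadjusted p under 0.05 (3.71% of all genes), and DESeq2 called 1, Prdx2 (1.18% of its genes). The summed level was 2107 ± 202 CPM in WD-Exos and 2402 ± 109 in BCAS. The comparisons of WD-Exos with ND-Exos and with BCAS share the WD-Exos libraries.

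ND-Exos against BCAS had 3 members lower and 6 higher (median 0.04), beside 49.6% lower over all genes. By edgeR 0 members passed (0.0196% of all genes), 0 had an unadjusted p under 0.05 (4.47% of all genes), and DESeq2 called 0 (1.54% of its genes). BCAS against Sham, which asks about the operation itself, had 4 members lower and 5 higher (median 0.01), beside 50.1% lower over all genes. Again 0 passed by edgeR (0% of all genes) or DESeq2 (2.01% of its genes), and 0 had an unadjusted p under 0.05 (6.04% of all genes). The fitted intervals of single members in these comparisons reached 0.24 to 0.75 on the log2 scale either side of the estimate. An unadjusted interval can exclude 0 while the adjusted p misses the threshold by edgeR, as for Prdx2 and Gpx1 in both WD-Exos comparisons. The interval width is thus not the smallest difference that could pass.

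**Figure D4:**
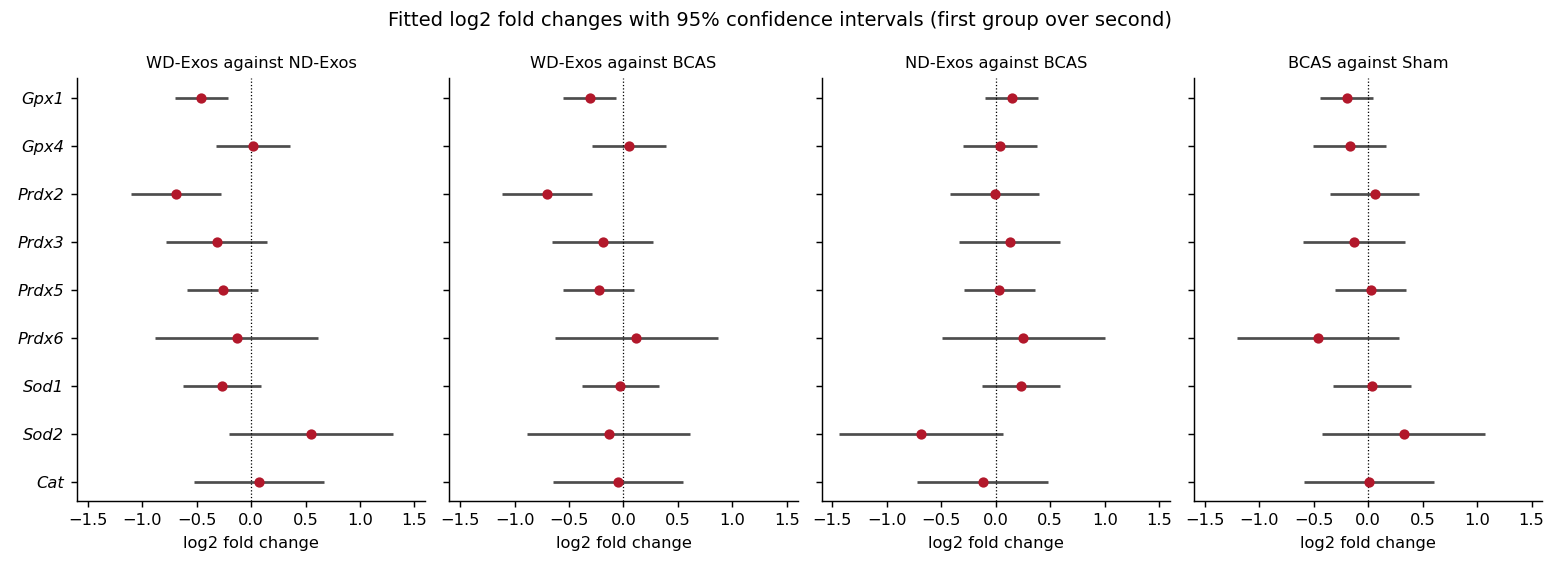
Fitted log2 fold change, first-named group over second, with its 95% interval (bars) for the 9 genes in the 4 comparisons. The intervals of Gpx1 and Prdx2 lie below 0 in both WD-Exos comparisons, and every other interval includes 0; none of these passed the adjusted threshold.

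A test for any difference among the 4 groups gave the same 2 genes an unadjusted p under 0.05, beside 6.33% of all genes. Gpx1 had an adjusted p of 0.198 and Prdx2 of 0.371, and 0 members passed by edgeR (0.0294% of all genes). DESeq2 called both, with adjusted p = 0.00123 for Gpx1 and adjusted p = 0.0254 for Prdx2, beside 163 (7.12%) of the 2289 genes to which it gave an adjusted p in this test.

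Within groups the members did not vary as a unit. Over the 36 pairs, the correlation of log2(CPM + 1) deviations from group means across 24 libraries ran from -0.45 to 0.48, with 16 pairs above 0 and 0 past the threshold after adjustment over the pairs. Gpx1 and Prdx2, whose unadjusted intervals lay below 0 in both WD-Exos comparisons, had r = -0.05 in this measure. The value is a description of libraries that share depth and group. The gene most like each member by this correlation, among 2659 genes of mean 50 CPM or more, was Ddost for Gpx1 (r = 0.79), Drg1 for Gpx4 (0.79), Ciao2a for Prdx2 (0.66) and Itga6 for Prdx3 (0.69). For Prdx5 it was Fyb (0.70), for Prdx6 Riok3 (0.72), for Sod1 Ramp1 (0.76), for Sod2 Selenow (0.65) and for Cat Tspan13 (0.69). No member was the closest gene of another. Each of these r is the highest found in that search, which by itself raises it, and none was tested.

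Genes that feed or surround these enzymes gave 0 calls by edgeR in all 4 comparisons, among 53 tested of 59 listed. Their share with an unadjusted p under 0.05 was 5.66% in WD-Exos against ND-Exos, 3.77% in WD-Exos against BCAS, 7.55% in ND-Exos against BCAS and 5.66% in BCAS against Sham. Among other family members and the copper chaperone of Sod1 (4 tested of 7), 3, 2, 1 and 3 were lower in those comparisons, with median log2 fold changes of -0.21, -0.02, 0.19 and -0.32. The nearest relative, the cytosolic peroxiredoxin Prdx1, averaged 289 ± 87.1 CPM in WD-Exos, 372 ± 76.4 in ND-Exos, 320 ± 47.3 in BCAS and 414 ± 52.2 in Sham. Its difference between WD-Exos and ND-Exos (log2 fold change -0.37, SE 0.17, adjusted p = 0.881) had the direction of Prdx2, and that between BCAS and Sham was -0.37 (SE 0.17, adjusted p = 0.755).

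The thioredoxin and glutaredoxin systems return electrons to peroxiredoxins. Their list, which also holds Srxn1, Txnip, Sesn1 and Sesn2, had 13 tested of 14. In BCAS against Sham 11 of the 13 were lower (median -0.27), beside 50.1% over all genes. Of these 13, 2 had an unadjusted p under 0.05 by edgeR (6.04% of all genes). The median is the value of Txnrd1, with an SE of 1.26. In the other 3 comparisons, in the same order, 6, 5 and 5 were lower (medians 0.01, 0.22 and 0.14). The shares lower over all genes were 50.8%, 51.1% and 49.6% in those 3. The median over all genes was within 0.016 of 0 in every comparison. Thioredoxin itself, Txn1, averaged 57.8 ± 16.6 CPM in BCAS, against 99.5 ± 25.5 CPM in Sham (log2 fold change -0.78, SE 0.28, adjusted p = 0.416). Ribosomal protein transcripts took 4.33 ± 0.78% of CPM in BCAS and 5.96 ± 0.523% in Sham (exact two-sided permutation p = 0.00866, adjusted p = 0.283), and their part in these values was not tested. Srxn1, which repairs overoxidised peroxiredoxins, had a count in 2 of 6 WD-Exos libraries, 3 of 6 ND-Exos, 0 of 6 BCAS and 2 of 6 Sham libraries. Txnip, the thioredoxin inhibitor, averaged 789 ± 591 CPM in WD-Exos and 531 ± 127 in ND-Exos (adjusted p = 0.9999).

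The glutathione list (7 tested of 8) holds synthesis genes together with carriers such as Slc7a11 and degrading enzymes such as Chac2. In WD-Exos against ND-Exos, WD-Exos against BCAS, ND-Exos against BCAS and BCAS against Sham, 5, 6, 2 and 5 were lower. The medians were -0.96, -0.17, 0.45 and -0.08 in that order. The first is the value of Chac2 (SE 2.55), which had a count in 2 of 6 WD-Exos and 3 of 6 ND-Exos libraries. The cystine carrier Slc7a11 averaged 1.86 ± 0.386 CPM in WD-Exos and 21.4 ± 38.3 in ND-Exos (adjusted p = 0.636), where 1 ND-Exos library held 97.5 CPM and the median was 2.30. Chac2, a glutathione-degrading enzyme, averaged 3.67 ± 5.72 CPM in BCAS, against 1.79 ± 2.80 CPM in Sham. Of the selenocysteine machinery that Gpx1 and Gpx4 need (7 tested of 7), 2, 4, 6 and 2 were lower in the same order of comparisons (medians 0.79, -0.40, -0.36 and 0.50). Trnau1ap, a selenocysteine tRNA-associated protein, averaged 20.6 ± 8.21 CPM in WD-Exos, 8.92 ± 6.47 in ND-Exos and 27.2 ± 12.9 in BCAS. Eefsec, the selenocysteine elongation factor, averaged 20.2 ± 17.9 CPM in BCAS, against 3.55 ± 4.11 CPM in Sham (adjusted p = 0.9996), and Sephs1, a selenophosphate synthetase relative, 28.5 ± 16.0 in WD-Exos and 43.9 ± 30.2 in BCAS.

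Peroxisome biogenesis genes (15 tested of 16), which make the organelle that holds catalase, had 8, 10, 11 and 6 lower (medians -0.07, -0.16, -0.61 and 0.17). Pex14, a docking protein for import, averaged 29 ± 20.1 CPM in WD-Exos and 12 ± 12.6 in ND-Exos. The phagocyte NADPH oxidase (7 tested of 7), a source of the superoxide, had 4, 4, 5 and 3 lower (medians -0.01, -0.01, -0.10 and 0.06). Its cytosolic subunit Ncf1 averaged 578 ± 140 CPM in WD-Exos and 289 ± 130 in ND-Exos (log2 fold change 1.0, SE 0.23, adjusted p = 0.290), and 541 ± 130 CPM in BCAS. Rac2, the GTPase of the complex, averaged 333 ± 66.3 CPM in WD-Exos and 398 ± 74.3 in BCAS (adjusted p = 0.9999).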

How the data were processed

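RNA was measured in 24 libraries. Per the labels' protocols, microglia were sorted into lysis buffer and amplified by Smart-seq2. The authors deposited 1 table of estimated counts by Entrez gene, made with an aligner, counter, build and annotation not given in the sources used here; 76.8% of genes were whole in every library. Of 22064 identifiers 6186 were blank and left out, and 22002 had a symbol in the RefSeq table (62 did not). After rounding, genes were tested by edgeR 4.0.16 (R 4.3.3): filterByExpr (minimum count 10), TMM (factors 0.936 to 1.17), 1 fit with 4 group means, robust quasi-likelihood tests, Benjamini-Hochberg adjustment over 10219 genes, threshold 0.05. CPM use the TMM scale; 95% intervals of ratios are unadjusted. Marker sums, ribosomal share, detected genes and totals were compared by exact permutation. Correlations between libraries were 0.648 to 0.79, and no pair was alike enough to be a duplicate. Reads amplified without molecular identifiers do not each stand for a molecule.

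Members, lists and tests were chosen with earlier results of these data known. Named genes were every member and, from each of 6 context lists, the gene with the smallest p in each comparison where none passed. A gene that this rule picked is not reported here. Alternatives were DESeq2 1.42.0, voom with library weights (limma 3.58.1), other size factors, filters, a detected-genes covariate, only 2 groups, the replicate number as a block and leaving out each library. Transcript lengths, overlaps and near copies (blastn 2.17.0, at least 90% over 300 bases) are from GENCODE vM21. The procedure was tested on simulated data.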

Additional observations from a re-analysis of the deposited data

Results flagged for a closer look

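In 3 of the 36 groups of 6 values looked at (9 genes in 4 groups), 1 library stood apart from the others by Dixon's criterion, which chance meets in about 1 in 20 groups. Sod1 reached 590 CPM in ND-Exos replicate 4, where the next library had 401. Cat reached 362 CPM in BCAS replicate 5, where the next had 209. Prdx5 reached 359 CPM in Sham replicate 5, where the next had 281. The 3 values are in different libraries and genes.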

How the results depend on the processing

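Over all alternatives 665 member fold changes kept their direction and side of the threshold, 52 reversed and 3 newly passed (Prdx2 in both WD-Exos comparisons and Gpx1 against ND-Exos, by DESeq2); no reversed value had passed. DESeq2 called 2 members in WD-Exos against ND-Exos, 1 in WD-Exos against BCAS and 2 in the test of any difference, where edgeR called 0. It called 126, 120, 157 and 204 genes in WD-Exos against ND-Exos, WD-Exos against BCAS, ND-Exos against BCAS and BCAS against Sham, and 163 for any difference, where edgeR called 2, 0, 2, 0 and 3; voom with library weights called 4, 1, 1, 10 and 27. A detected-genes covariate gave 1 gene in ND-Exos against BCAS and 13 for any difference. Only the 2 groups gave 1 in WD-Exos against ND-Exos, and for any difference no filter gave 30 and a mean of 5 CPM or more 25. The cause of these shifts was not tested. Leaving out 1 library at a time, 0 members passed in every comparison. Genes past the threshold were then 2 to 5 in WD-Exos against ND-Exos (5 without ND-Exos replicate 5), 1 to 3 in ND-Exos against BCAS (1 without BCAS replicate 5 or ND-Exos replicate 1, 2 or 6) and 0 to 32 in BCAS against Sham (32 without BCAS replicate 2). For any difference they were 2 to 42 (11 and 42 without BCAS replicates 1 and 2, 20 without ND-Exos replicate 3, 13 and 9 without WD-Exos replicates 1 and 5).

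The log2 fold changes of Prdx2 stayed between -0.76 and -0.62 in WD-Exos against ND-Exos and between -0.75 and -0.58 against BCAS without any 1 library, and those of Gpx1 between -0.51 and -0.41 and between -0.35 and -0.26. Reversed log2 fold changes were, with voom, Gpx4 -0.06, Prdx6 0.16 and Cat -0.04 in WD-Exos against ND-Exos, Gpx4 -0.02 in WD-Exos against BCAS and Cat -0.06 in BCAS against Sham. With the detected-genes covariate Cat was 0.33 in WD-Exos against BCAS, 0.14 in ND-Exos against BCAS and -0.44 in BCAS against Sham, and Prdx5 -0.01 in BCAS against Sham. Leave-one-out ranges that crossed 0 in WD-Exos against ND-Exos were -0.09 to 0.11 for Gpx4, -0.32 to 0.18 for Prdx6 and -0.18 to 0.24 for Cat. In WD-Exos against BCAS they were -0.06 to 0.14 for Gpx4, -0.06 to 0.30 for Prdx6, -0.10 to 0.04 for Sod1 and -0.31 to 0.19 for Cat. In ND-Exos against BCAS they were -0.05 to 0.09 for Gpx4, -0.07 to 0.09 for Prdx2, -0.04 to 0.10 for Prdx5, -0.05 to 0.45 for Prdx6 and -0.26 to 0.10 for Cat. In BCAS against Sham they were -0.05 to 0.24 for Prdx2, -0.04 to 0.10 for Prdx5, -0.06 to 0.11 for Sod1 and -0.22 to 0.12 for Cat. The pairwise correlations gave 0 pairs past the threshold with either alternative.

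With the replicate number as a block, 0 members passed in every comparison, genes past the threshold numbered 2, 0, 2 and 0 in the 4 comparisons and 2 for any difference, and Cat in BCAS against Sham was -0.02. Libraries with the same number did not deviate together: the correlation of 36 such pairs had a median of -0.0133, 8 were above 0.1, and 6 of 24 libraries correlated best with their own number, so the numbers were not taken as pairs. Members had at least 447 counts in every library, which in amplified libraries does not give a number of molecules, and fitted intervals reached up to 0.75 either side on the log2 scale.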
